A study of Homo sapiens with 42 samples.

Results

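Monomeric alpha satellite was followed through 191 of the 2523 centromeric and satellite regions counted in a study of topoisomerase 2 on DNA. The regions were chosen by name alone: every row of the count table that starts with mon_, followed by the chromosome and a running number, so that mon_8_1 is the region numbered 1 on chromosome 8. Alpha satellite is the main DNA repeat of human centromeres. In the active array its units are ordered into long higher-order repeats, whereas monomeric alpha satellite lacks that order, flanks the arrays, and consists of older, more diverged copies that short reads can more often be placed in. Topoisomerase 2 cuts both strands of one DNA duplex and passes another through the gap. TOP2A is most abundant in dividing cells and works at centromeres in mitosis, and TOP2B is also present in resting cells. TOP2 poisons such as etoposide and mitoxantrone hold the enzyme covalently on the DNA it has cut.

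The cells were KG-1, an established line of human acute myelogenous leukaemia. In the etoposide series they were kept for 1 h with 100 µM etoposide or with vehicle, in 4 replicas, and in the mitoxantrone series for 1 h with 20 µM mitoxantrone or with vehicle, in 3 replicas. Each replica gave 6 libraries: DNA pulled down with an antibody to TOP2A, DNA pulled down with an antibody to TOP2B, and input DNA, each with and without drug. In all groups the chromatin was sheared without formaldehyde, and the eluted DNA was treated with the phosphodiesterase TDP2 and cut with BsmAI. The question addressed here was whether the drugs, or the pulldown of either enzyme, altered the share of reads in monomeric alpha satellite, and whether its regions did so together. The labels do not say whether replicas were grown and treated separately, so the p-values measure the spread between these samples, which may be technical.

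The 42 libraries held 552909 to 59639786 reads, of which 23900 to 3207823 lay in the named regions. Between 21.1% and 68.3% of all reads had been set aside for low mapping quality. Monomeric regions held 667 to 123647 reads per library (median 3028), and 562493 of the 25094773 region reads in all. Read length was 38 bp in etoposide replica 1, 100 bp in mitoxantrone replica 1 and 50 bp elsewhere. Etoposide replicas 3 and 4 and mitoxantrone replica 2 came from 1 sequencing order, and the other 4 replicas each from an order of their own. Replica, order and read length could therefore largely not be told apart.

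The share of region reads in monomeric alpha satellite ran from 0.303% to 4.13% of a library, a 13.6-fold range with a median of 1.30%. It was above 3% in 12 libraries, below 1% in 18 and between them in 12. The width of the 95% Wilson interval around each share was 0.0202 to 0.504 percentage points. This interval covers counting error only, so the range between libraries was far wider than counting error. Without drug, the TOP2A, TOP2B and input shares were close to each other within most replicas. They were 0.427%, 0.442% and 0.424% in etoposide replica 1, and 3.86%, 3.72% and 3.82% in etoposide replica 2. Etoposide replica 3 had 0.702%, 0.875% and 0.734%, and etoposide replica 4 had 0.516%, 0.479% and 0.721%. The untreated libraries of this series were thus high in replica 2 and below 1% in the other 3 replicas. In the mitoxantrone series the untreated shares were 1.33%, 1.39% and 1.27% in replica 1, and 3.92%, 3.96% and 3.85% in replica 3. Replica 2 parted from this pattern, with 2.66% in TOP2A, 1.10% in TOP2B and 0.365% in input.

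With etoposide, the TOP2A, TOP2B and input shares were 0.303%, 0.324% and 0.442% in replica 1, and 2.23%, 3.80% and 3.88% in replica 2. They were 4.13%, 3.95% and 1.72% in replica 3, and 0.389%, 3.00% and 3.13% in replica 4. Treated libraries thus lay on both sides of the untreated ones, and in each library kind the treated and untreated groups overlapped. With mitoxantrone the shares were 2.41%, 2.24% and 1.58% in replica 1, 1.40%, 0.727% and 0.411% in replica 2, and 0.730%, 0.605% and 1.01% in replica 3. These groups overlapped as well. Shares are parts of the region reads in a library, so a change that touched all regions alike could not be seen. Among the 42 libraries the log2 share had a Pearson correlation of 0.041 with the share of low-quality reads and 0.093 with log2 region reads, against 0.95 with the share of divergent higher-order alpha satellite and -0.860 with that of centromeric transition DNA. The classes share a denominator, so the last value in part follows from it.

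**Figure D1:**
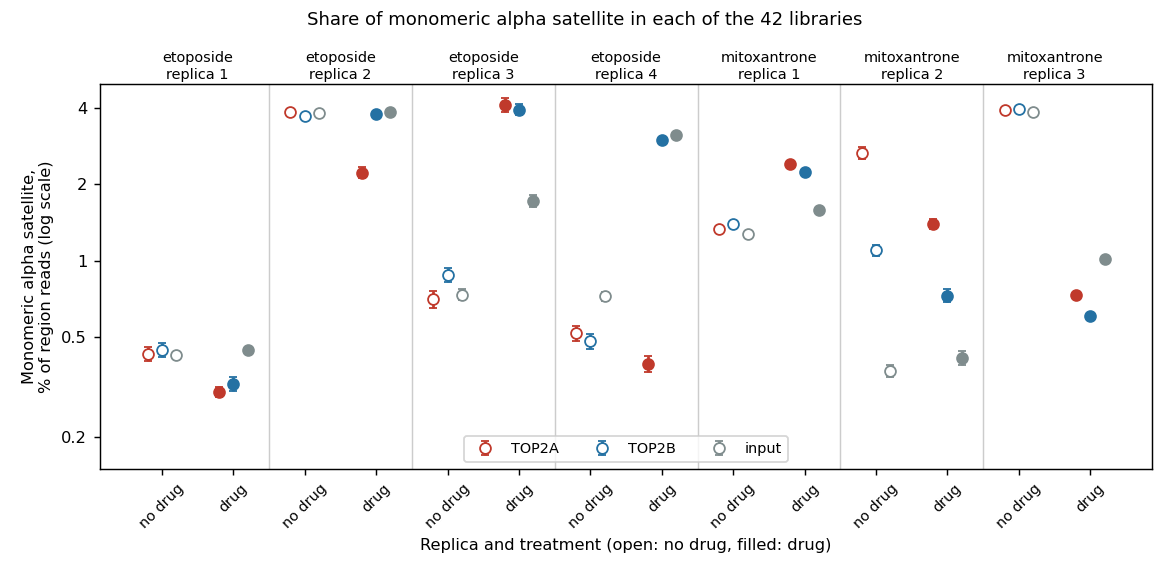
Share of region reads in the 191 monomeric alpha satellite regions (vertical axis, percent, log scale) for each library, by replica and treatment on the horizontal axis. Points are single libraries (open without drug, filled with drug) and bars are 95% Wilson intervals. Untreated libraries of etoposide replica 2 and mitoxantrone replica 3 sit between 3.72% and 3.96%, and those of etoposide replica 1 between 0.424% and 0.442%.

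The 191 regions were named for 23 chromosomes, all except chromosome 1. Of these regions 7 had no read in any library: mon_13_1, mon_13_6, mon_19_1, mon_21_1, mon_21_6, mon_22_2 and mon_22_5. At 0 of 25094773 region reads, up to 0.12 CPM (counts per 1000000 region reads) would still be allowed for each. A mean of at least 10 reads per library was reached by 118 regions and one of at least 50 reads by 54, and 47 regions had a read in every library. A library held reads in 95 to 178 of the regions (median 136.5). Region lengths and coordinates were not used here, so the order of regions below is one of reads and not of density along the DNA.

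Reads were concentrated in a few regions. The 10 regions with the highest mean level held 38.5% to 53.0% of a library's monomeric reads (median 46.2%). Region mon_8_1 led with a mean of 2229 CPM, from 296 to 5900 with a median of 1254. It alone held 6.69% to 16.6% of the monomeric reads. Region mon_10_1 followed at a mean of 1059 CPM (177 to 2336, median 724) and mon_11_4 at 837 CPM (142 to 2218, median 572). The next were mon_11_3 (mean 783 CPM), mon_7_7 (774 CPM), mon_19_5 (702 CPM), mon_8_11 (527 CPM), mon_11_1 (490 CPM), mon_5_1 (487 CPM) and mon_3_1 (396 CPM). The range of each of these over libraries was wider than the distance to its neighbours in this order.

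By chromosome, the 11 regions of chromosome 8 held a mean of 20.7% of the monomeric reads of a library (SD 3.52, n = 42 libraries), of which mon_8_1 made up 60.4%. The 4 regions of chromosome 11 held 12.2% (SD 1.32), the 9 of chromosome 7 held 8.52% (SD 0.919) and the 2 of chromosome 10 held 7.12% (SD 0.797). At the other end, chromosomes 13, Y, 18, 21, 2 and 4 each held less than the 1.27% of chromosome 9, down to 0.132% for chromosome 4. The number of regions did not set this order. Chromosome 14 had 20 regions, the most of all, and held 2.98% (SD 1.23). The region with the highest mean level of its chromosome, for chromosomes 12, X, 16, 20, 6 and 17, was mon_12_6 (390.2 CPM), mon_X_6 (344 CPM), mon_16_6 (298 CPM), mon_20_5 (180.3 CPM), mon_6_5 (156 CPM) and mon_17_5 (140.1 CPM). On chromosomes 9, 18, Y, 2 and 4 it was mon_9_5 (79.8 CPM), mon_18_1 (62.5 CPM), mon_Y_2 (42.1 CPM), mon_2_1 (36.8 CPM) and mon_4_1 (17.4 CPM).

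The acrocentric chromosomes 13, 14, 15, 21 and 22, whose short arms carry the ribosomal DNA, had 73 of the 191 regions and 6 of the 7 without a read, but 12.8% of the monomeric reads. The region with the highest mean level on each acrocentric chromosome was mon_15_11 (mean 197 CPM), mon_22_16 (104 CPM), mon_14_11 (75.6 CPM), mon_13_11 (46.0 CPM) and mon_21_5 (12.9 CPM). The median acrocentric region had 318 reads over all libraries, against 1330 for the 118 regions of the other chromosomes.

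While the total share ranged 13.6-fold, the part of chromosome 8 stayed between 13.2% and 27.6% of the monomeric reads and that of chromosome 11 between 9.29% and 15.8%. The replica whose makeup differed most in the acrocentric regions was mitoxantrone replica 1, the replica with 100 bp reads. There the acrocentric regions held a mean of 18.6% of the monomeric reads (SD 1.55, 17% to 20.9% over 6 libraries). In the other replicas the means ran from 8.67% (SD 1.91) in etoposide replica 1 to 12.2% (SD 0.801) in etoposide replica 2, and no library of another replica reached 17%. In the same replica chromosome 14 held 5.56% (SD 0.553), against 2.16% to 2.94% elsewhere, chromosome 15 held 8.26% (SD 0.534), against 4.55% to 6.5%, and chromosome 22 held 3.26% (SD 0.372), against 1.52% to 2.11%. Chromosome 8 held 14.8% there (SD 1.02), against 18.6% in etoposide replica 1 and 21.2% to 24.1% in the remaining 5. Mitoxantrone replica 1 also had the highest share of low-quality reads, 54.5% to 68.3%. Its replica, order, read length and share of low-quality reads cannot be told apart.

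Single regions departed by replica in the same way. Region mon_8_1 held a mean of 9.16% (SD 0.677) of the monomeric reads in mitoxantrone replica 1 and 9.5% (SD 2.10) in etoposide replica 1, against 12% to 13.8% in the other 5 replicas. Region mon_6_4 held 1.45% (SD 0.432) in etoposide replica 1, whose reads were 38 bp long, and 0.478% to 0.857% elsewhere. Region mon_3_2 ran from 0.523% (SD 0.380) in etoposide replica 3 to 1.53% (SD 0.968) in etoposide replica 1. In mitoxantrone replica 1, mon_15_7 held 1.21% (SD 0.268), mon_18_1 held 0.594% (SD 0.127) and mon_2_1 held 0.396% (SD 0.111), each the highest mean of the 7 replicas. Each library was also set against the mean makeup of the libraries of the other replicas, by the chi-square of its regions divided by the degrees of freedom. This ran from 1.20, in an untreated TOP2A library with 799 monomeric reads, to 30.1, in an untreated input with 123647. The same difference in makeup gives a larger value in a library with more reads. Counting error alone gives a value of about 1, if reads are independent molecules, which no molecular identifiers showed here.

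**Figure D2:**
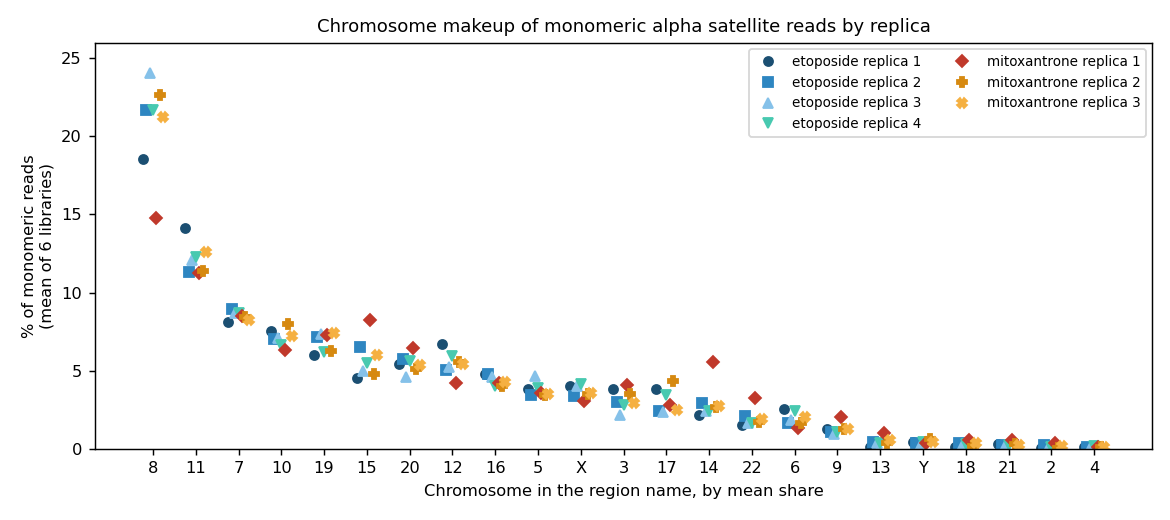
Mean percent of a library's monomeric reads (vertical axis) that fell on the regions of each chromosome (horizontal axis, ordered by mean share), with 1 point for each of the 7 replicas (mean of 6 libraries). Mitoxantrone replica 1 lies lowest on chromosome 8, at 14.8%, and highest on chromosomes 14 and 15, at 5.56% and 8.26%.

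How alike regions moved was measured over the 54 regions with a mean of at least 50 reads, as the Pearson correlation of log2 shares. These correlations are descriptions, without a p-value, since regions share their library, its depth and the makeup of its reads. Over 42 libraries the 1431 pairs of regions had a median correlation of 0.862, from 0.552 to 0.985, and all were above 0. Regions of different chromosomes were as alike as those of 1 chromosome, with medians of 0.859 over 1344 pairs and 0.882 over 87. Among the 16 regions with a mean of at least 200 reads the median was 0.961, and the lowest pair had 0.866.

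The same held for the differences within replicas. The 21 changes with drug, 1 for each replica and library kind, had a median correlation of 0.854 between regions (0.439 to 0.990), with 1431 of 1431 pairs above 0. Without mitoxantrone replica 3, which had the largest changes of its series, the median over 18 changes was 0.744. The 28 differences between pulldown and input had a median of 0.744 (-0.105 to 0.983), with 1428 pairs above 0. When each region was instead taken as a share of the monomeric reads, the median correlation was 0.001 (-0.735 to 0.748). Dividing by the class total takes out movement that the regions share, so a median near 0 follows largely from the measure. For that measure the 87 pairs within a chromosome had a median of 0.242 and the 1344 others -0.012. The highest pair was mon_15_7 with mon_22_16, at 0.748, and the lowest mon_15_3 with mon_8_3, at -0.735. Each of these 4 regions had its highest or its lowest mean share in mitoxantrone replica 1.

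**Figure D3:**
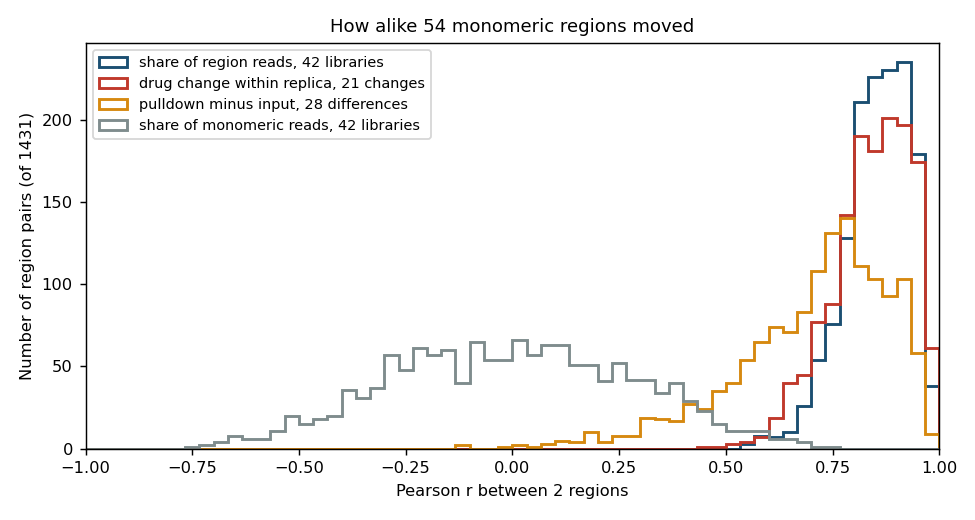
Number of region pairs (vertical axis, of 1431) by Pearson correlation between 2 monomeric regions (horizontal axis). The lines for share of region reads (42 libraries), drug change (21) and pulldown minus input (28) have medians of 0.862, 0.854 and 0.744. The line for share of monomeric reads (42 libraries) has a median of 0.001, which follows largely from dividing by the class total.

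Regions with more reads followed the rest of the class more closely. Each region was set against the sum of all other monomeric regions. The 10 regions with a mean of 300 reads or more had a median correlation of 0.978, the 23 with 100 to 300 reads 0.943 and the 21 with 50 to 100 reads 0.875. Over 42 libraries mon_10_1 and mon_11_4 were highest, both at 0.989, and mon_3_2 was lowest, at 0.746, although it had a mean of 101 reads. It was followed by mon_5_8 (0.795) and mon_6_4 (0.834). Over the 21 drug changes the highest were mon_16_6 and mon_8_1, both at 0.993, and the lowest mon_7_4 at 0.731 and mon_9_5 at 0.776, with 0.801 for mon_3_2.

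Regions of other alpha satellite classes had high values too. Against the summed monomeric share, the 5 divergent higher-order regions with enough reads had a median correlation of 0.951, led by dhor_6_1 at 0.982, dhor_3_2 at 0.965, dhor_1_1 at 0.951 and dhor_12_7 at 0.947. The 18 higher-order regions had a median of 0.858 and were led by hor_10_1 at 0.921. The 8 human satellite 2 regions had 0.884 and the 42 human satellite 3 regions 0.802. By contrast 343 centromeric transition regions had a median of 0.082, 27 beta satellite regions 0.158 and 12 gamma satellite regions -0.492. Likeness between regions of 1 class was not particular to monomeric alpha satellite: pairs of higher-order regions had a median of 0.858, pairs of human satellite 3 regions 0.828 and pairs of gamma satellite regions 0.813, against 0.083 for transition regions.

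Taken over the 118 regions with a mean of at least 10 reads, the combination of replica and treatment held a median of 73.4% of the variation between libraries (40.8% to 91.4%), where its degrees of freedom alone would give 31.7%. Replica by itself held 49.5%, against 14.6% by degrees of freedom. Library kind held 1.35%, against 4.88%, and treatment as such 0.285%, against 2.44%. Treatment here set all drug libraries against all untreated ones, with both drugs pooled. Changes of opposite sign between drugs or replicas cancel in it, so it does not measure the size of either drug's change. In TOP2B, for example, the summed class changed by a mean of 1.10 with etoposide and -0.87 with mitoxantrone. Over all 1232 regions of that depth the medians were 68.3% for replica and treatment, 51.1% for replica, 2.04% for library kind and 0.518% for treatment.

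In the etoposide series the drug change of the monomeric regions differed in sign between replicas. In TOP2A pulldown 53 of the 54 regions were higher with drug in replica 3 (median log2 change 2.48). They were mostly lower in replica 1 (41 of 54, median -0.52), replica 2 (51 of 54, median -0.76) and replica 4 (40 of 54, median -0.35). The leading region showed the same: mon_8_1 had 504, 5175, 1168 and 639 CPM without drug in replicas 1 to 4, and 308, 3138, 5900 and 430 CPM with drug. Its log2 changes were -0.71, -0.72, 2.33 and -0.57, and the treated and untreated values overlapped. The drug library of replica 3 had the fewest region reads of all 42, 23900, and its 5900 CPM rest on 141 reads. The TOP2A drug library of replica 2 had 71055 region reads and 52.1% low-quality reads. All other libraries of replica 2 had at least 589193 region reads and at most 29.3% low-quality reads.

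In TOP2B pulldown all 54 regions were higher with etoposide in replica 4 (median 2.54) and 52 in replica 3 (median 2.05). In replica 2, 38 were higher with a median of 0.03, and in replica 1, 42 were lower with a median of -0.38. For mon_8_1 the untreated values were 477.5, 4982, 867 and 540 CPM and the treated values 337, 5011, 5128 and 4100 CPM. The input, which had met no antibody, was also highest in replicas 4 and 3. Of the 54 regions 54 were higher in replica 4 (median 2.10) and 53 in replica 3 (median 1.34), against medians of 0.02 and 0.08 in replicas 2 and 1. For mon_8_1 the input values were 300.5, 4948, 974 and 743 CPM without drug and 296, 4731, 2688 and 4248 CPM with it. Replicas 3 and 4, where the regions were higher with drug in TOP2B and input, shared a sequencing order, and the part of the order in this was not tested.

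By chromosome these changes ran together. Among the 17 chromosomes whose monomeric reads averaged at least 100 per library, all were higher with etoposide in replica 3 in each of the 3 library kinds, and all in replica 4 in TOP2B and input. In replica 3 TOP2A the changes ran from 1.20 on chromosome 9 to 3.64 on chromosome 5. In replica 4 TOP2B they ran from 1.99 on chromosome 9 to 3.27 on chromosome 15. In replica 2 TOP2A all 17 were lower, from -1.53 on chromosome 6 to -0.36 on chromosome 3, with a drug library of 71055 region reads and 52.1% low-quality reads. Pairs of chromosomes had a median correlation of 0.961 over the 21 drug changes (lowest 0.800).

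With mitoxantrone the replicas differed in sign as well. In replica 3 all 54 regions were lower with drug in TOP2A (median -2.54), in TOP2B (median -2.88) and in input (median -2.04), and so were all 17 chromosomes. This was not particular to monomeric regions. In that replica summed divergent higher-order regions changed by -2.71, -3.32 and -2.38, and higher-order regions by -1.44, -1.99 and -1.16. In replica 1 all 54 were higher in TOP2A (median 0.87), 53 in TOP2B (median 0.64) and 49 in input (median 0.31). In replica 2, 46 were lower in TOP2A (median -0.80) and 39 in TOP2B (median -0.64), while 38 were higher in input (median 0.25). For mon_8_1 the TOP2A values in replicas 1 to 3 were 1098, 3637 and 5246 CPM without drug and 2167, 2099 and 990 CPM with it. The TOP2B values were 1226, 1164 and 4962 CPM without drug and 2024, 821 and 809 CPM with it. In input they were 1282, 408 and 4677 CPM without drug and 1555, 457.5 and 1352 CPM with it. In each kind the treated and untreated values overlapped.

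**Figure D4:**
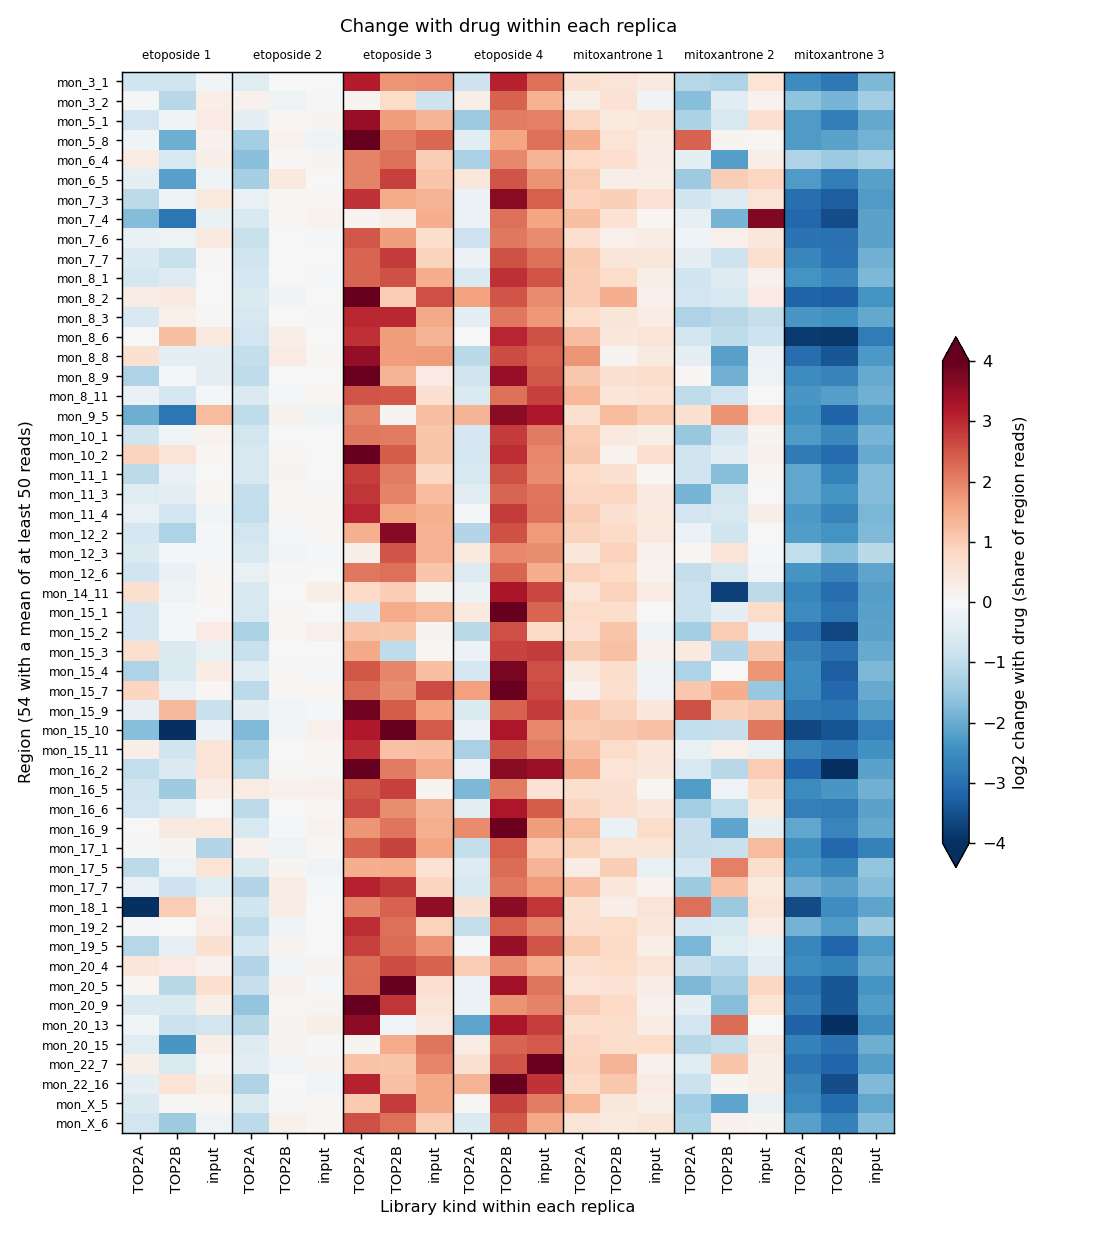
Log2 change with drug of the share of region reads (colour, red higher and blue lower with drug) for 54 monomeric regions (rows) in each replica and library kind (columns). Columns differ more than rows: all 54 regions are lower in the 3 columns of mitoxantrone replica 3, and 52 to 53 are higher in the 3 columns of etoposide replica 3.

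Pulldown was then compared with input. Over the 7 replicas without drug, the summed monomeric share in TOP2A was 0.35 higher than in input on the log2 scale (SD 1.12, n = 7, higher in 5). Mitoxantrone replica 2 decided this value: it had 2.86 and the other replicas -0.48 to 0.07, and without it the mean was -0.07. The untreated TOP2A library of that replica had 43988 region reads, 1169 of them monomeric, and 47.6% low-quality reads. Its untreated input had 333498 region reads, 1217 of them monomeric, and 37.8% low-quality reads. TOP2B lay 0.21 over input on average (SD 0.67, higher in 5 of 7), and -0.02 without the same replica. TOP2A exceeded TOP2B by 0.14 (SD 0.52, higher in 3 of 7), and the mean was -0.05 without that replica. In mitoxantrone replica 2, 52 of the 54 regions were higher in TOP2A than in input without drug (median 2.74) and 48 in TOP2B (median 1.71). In mitoxantrone replica 3 without drug, the 3 libraries with the most monomeric reads, the medians were 0.01 for TOP2A and 0.03 for TOP2B, and no region was more than 0.29 above or 0.27 below input.

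With drug the spread was wider. The mean of TOP2A over input was -0.17 (SD 1.59, n = 7, higher in 3), and 0.30 without etoposide replica 4, where all 54 regions were lower in TOP2A than in input (median -2.97). TOP2B lay 0.18 over input on average (SD 0.70, higher in 3 of 7), with 0.01 without etoposide replica 3 and 0.33 without mitoxantrone replica 3. TOP2A lay -0.35 from TOP2B on average (SD 1.25, higher in 4 of 7), or 0.09 without etoposide replica 4. In etoposide replica 3 with drug, 49 regions were higher in TOP2A than in input and 50 in TOP2B, each with a median of 1.21. In mitoxantrone replica 3 with drug, 51 were lower in TOP2A (median -0.53) and 54 in TOP2B (median -0.80). The change with etoposide in TOP2A minus that in input was -0.64 for the summed class (SD 1.58, n = 4) and that in TOP2B 0.24 (SD 0.63). The first ran from -1.30 without replica 3 to -0.01 without replica 4, and the second from 0.01 without replica 3 to 0.49 without replica 1. For mitoxantrone these were -0.35 (SD 0.83, n = 3) and -0.39 (SD 0.66). They ran from -0.80 without replica 1 to 0.02 without replica 2, and from -0.77 without replica 1 to -0.20 without replica 3. Each of the 4 means was smaller than its SD.

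All regions were tested together with edgeR's quasi-likelihood method, at an adjusted p under 0.05. In the etoposide series 1068 regions could be tested, 107 of them monomeric. No region was called in TOP2A (0% of those tested), and so 0 of the 107. At an unadjusted p under 0.05 edgeR had 7 regions, 0 of them monomeric, and DESeq2 called 0 with 14 such regions and 0 monomeric. The monomeric regions had a median log2 change of -0.28 (35 higher, 72 lower), against -0.05 over all regions. This median ran from -0.93 without replica 3 to 0.78 without replica 2. It counts each region alike. Of the 10 leading regions 8 were higher and 2 lower in the same fit (-0.05 to 0.73). The summed class had a mean within-replica change of 0.22 (SD 1.57, n = 4, higher in 1). In TOP2B edgeR called 0% of regions and 0 of 107, with 7 at the unadjusted level and none monomeric, and DESeq2 0 with 8. The monomeric median was 0.79 (103 higher, 4 lower), against 0.07 over all regions, and ran from 0.39 without replica 4 to 1.79 without replica 2. Other alpha satellite classes rose as well. The mean within-replica change in TOP2B was 1.10 for the summed monomeric class (SD 1.54). It was 0.89 for higher-order regions (SD 1.86) and 1.16 for divergent higher-order regions (SD 1.91). In input edgeR called 0% and 0 of 107, with 0 at the unadjusted level, and DESeq2 0 with 0. There the median was 0.59 (104 higher, 3 lower), against 0.09, and ran from 0.24 without replica 4 to 1.34 without replica 2. The summed monomeric class changed in input by a mean of 0.86, against 0.98 for higher-order and 0.95 for divergent higher-order regions.

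The standard errors show what each fit could resolve. For the 10 leading regions the TOP2B changes ran from 0.72 in mon_11_4 to 1.10 in mon_7_7. Their standard errors were 0.762 to 1.05 in this fit, which leaves the pairing by replica out, and 0.489 to 0.609 with the replica as a block. With the replica as a block, mon_8_1 had a TOP2B change of 1.17 (SE 0.547, edgeR adjusted p = 0.761) and mon_10_1 one of 1.17 (SE 0.497, edgeR adjusted p = 0.761). The blocked fit called 0% of regions, with 41 at the unadjusted level in TOP2B, 15 of them monomeric. The etoposide change in TOP2A minus that in input had a monomeric median of -0.79 (9 higher, 98 lower; all regions -0.11), and that in TOP2B one of 0.22 (76 higher, 31 lower; all regions -0.00). EdgeR called 0% of regions and 0 of 107 in both, with 5 and 0 at the unadjusted level, none monomeric, and DESeq2 called 0 with 5 and 0. The TOP2A median ran from -1.35 without replica 3 to -0.37 without replica 2, and the TOP2B median from -0.01 without replica 3 to 0.43 without replica 2.

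In the mitoxantrone series 1416 regions were tested, 127 of them monomeric, and edgeR called 0% of regions and 0 of 127 in TOP2A, in TOP2B and in input. At an unadjusted p under 0.05 it had 5, 3 and 1 regions, of which 1, 3 and 1 were monomeric. DESeq2 called 0 in each, with 7, 3 and 1. The monomeric medians were -0.75 in TOP2A (8 higher, 119 lower), -0.79 in TOP2B (6 higher, 121 lower) and -0.81 in input (2 higher, 125 lower), against -0.05, 0.02 and -0.05 over all regions. Without replica 3 they turned to 0.13, 0.22 and 0.24, and without replica 1 they were -1.61, -1.93 and -1.59. Summed higher-order regions had mean within-replica changes of -0.59, -0.55 and -0.19, against -0.83, -0.87 and -0.48 for the summed monomeric class. The 10 leading regions had standard errors of 0.654 to 0.826, and mon_11_3 had the lowest TOP2A change among them, -1.13. The smallest unadjusted p of a monomeric region in the fits without a block, 0.0136, belonged to mon_20_7 in TOP2A, with a log2 change of -3.57 (SE 1.30, edgeR adjusted p = 0.999). It rested on 3, 16 and 53 reads without drug and 8, 0 and 11 with drug in replicas 1 to 3. Set against input, the mitoxantrone change had monomeric medians of 0.05 in TOP2A (71 higher, 56 lower) and 0.06 in TOP2B (69 higher, 58 lower), with 0% of regions and 0 of 127 called by edgeR, 0 at the unadjusted level, and 0 with 0 by DESeq2. These were -0.17 without replica 3 in TOP2A and -0.37 without replica 1 in TOP2B. The leading regions differed in sign from these medians. Of the 10, 7 were lower and 3 higher in TOP2A, and 9 lower and 1 higher in TOP2B. The summed class had -0.35 and -0.39.

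Pulldown and input were tested over 42 libraries and 1372 regions, 123 of them monomeric. Without drug the monomeric medians were 0.13 for TOP2A over input (88 higher, 35 lower), 0.08 for TOP2B over input (89 higher, 34 lower) and 0.05 for TOP2A over TOP2B (75 higher, 48 lower), with -0.04, -0.04 and -0.01 over all regions. With drug they were -0.31 (34 higher, 89 lower), 0.16 (95 higher, 28 lower) and -0.46 (23 higher, 100 lower), with -0.12, -0.04 and -0.04 over all regions. Single replicas moved these medians. Without drug, TOP2A over input ran from -0.06 without etoposide replica 2 to 0.41 without mitoxantrone replica 3, TOP2B over input from 0.03 to 0.25 and TOP2A over TOP2B from -0.04 to 0.14 without the same replicas. With drug, TOP2A over input ran from -0.52 without etoposide replica 3 to -0.03 without etoposide replica 4. TOP2B over input ran from 0.01 without mitoxantrone replica 1 to 0.37 without mitoxantrone replica 3, and TOP2A over TOP2B from -0.64 without mitoxantrone replica 2 to -0.32 without mitoxantrone replica 1. In the 6 comparisons edgeR called 0% of regions and 0 of 123. At an unadjusted p under 0.05 it had 27, 7 and 2 regions without drug, 1, 0 and 0 of them monomeric, and 24, 9 and 7 with drug, 1, 0 and 2 of them monomeric. DESeq2 called 0 in each, with 30, 10 and 2 such regions without drug and 32, 15 and 8 with drug.

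With the combination of replica and treatment as a block, the 10 leading regions had standard errors of 0.271 to 0.351 for TOP2A over input without drug, against 0.547 to 0.715 without the block. In that fit edgeR called 0.437% of regions, 6 of 1372, all lower in TOP2A and none monomeric, and mon_8_1 had 0.47 (SE 0.310, edgeR adjusted p = 0.672). TOP2B over input without drug had 0.0729% of regions called, 1 of 1372 and not monomeric. With drug the block gave a monomeric median of -0.41 for TOP2A over input (25 higher, 98 lower). There 0% of regions were called, and 171 regions had an unadjusted p under 0.05, 25 of them monomeric. The monomeric median of TOP2B over input with drug was -0.01 with the block (60 higher, 63 lower), the other sign from the fit without it.

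The etoposide effect minus the mitoxantrone effect was fitted on the same 42 libraries. The doses differed, and the drugs were given in different replicas, so drug and replica cannot be told apart here. The monomeric medians were 0.39 in TOP2A (81 higher, 42 lower), 1.70 in TOP2B (121 higher, 2 lower) and 1.56 in input (122 higher, 1 lower), against -0.13, 0.08 and 0.15 over all regions. EdgeR called 0% of regions and 0 of 123 in each, with 6, 10 and 0 regions at an unadjusted p under 0.05, of which 1, 5 and 0 were monomeric, and DESeq2 0 with 9, 9 and 0. Region mon_8_1 had 1.05 in TOP2A (SE 1.32), 2.09 in TOP2B (SE 1.33) and 1.70 in input (SE 1.32), at edgeR adjusted p-values of 1.00, 0.997 and 1.00. The input, which had met no antibody, thus had a median close to that of TOP2B. Without mitoxantrone replica 3 the medians were -0.51, 0.47 and 0.28. The TOP2A median was -0.08 without etoposide replica 3, 1.34 without etoposide replica 2 and 1.31 without mitoxantrone replica 1. The highest TOP2B median was 2.75, without mitoxantrone replica 1, and the highest input median 2.27, without etoposide replica 2.

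**Figure D5:**
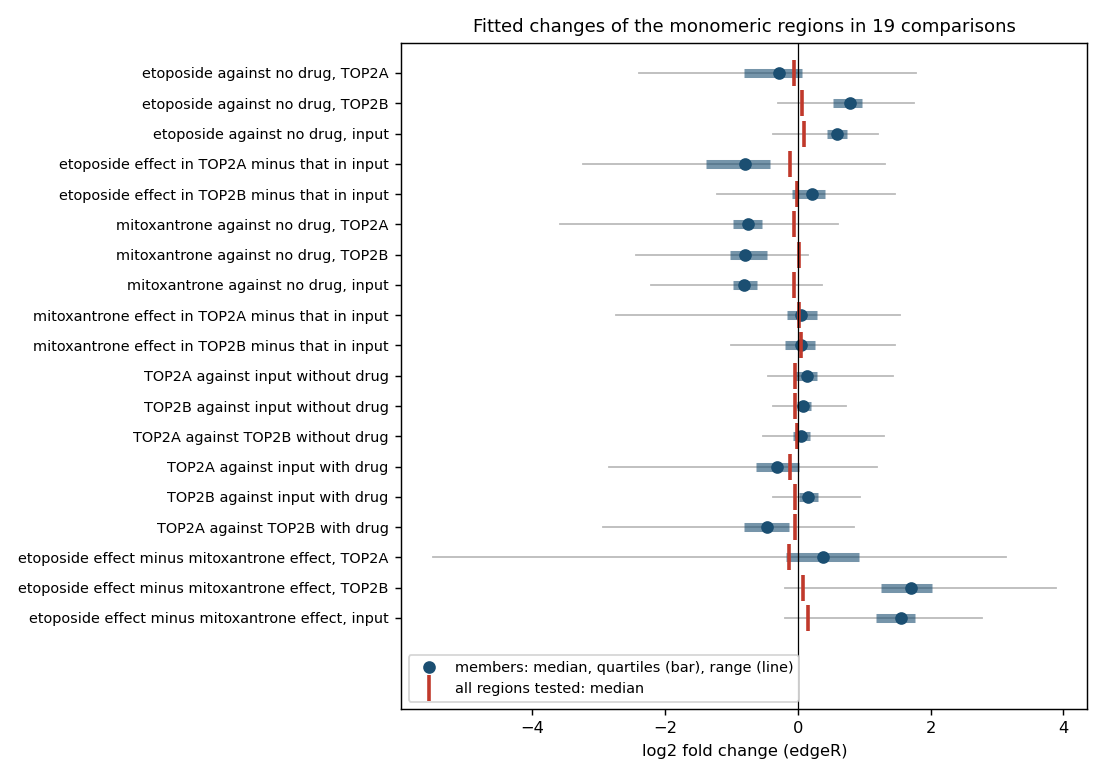
Fitted log2 fold change (horizontal axis) of the tested monomeric regions in 19 comparisons (rows). Points are medians, thick bars quartiles, thin lines the range, and red marks the median of all regions tested. Medians run from -0.81 for mitoxantrone in input to 1.70 for the difference of the drug effects in TOP2B, and no region was called in any row.

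Scaled to the monomeric reads of each library, the fits ask whether single regions departed from their class. The change of the summed class is then removed by construction, while the median over regions can still differ from 0. For TOP2A over input without drug, for example, this median was -0.09. On this scale with a block added, edgeR called 0% of all regions tested in each of the 19 comparisons, and so 0 monomeric regions. The count in the blocked fit is thus not particular to the monomeric regions. EdgeR also called 0 monomeric regions on this scale without the block, where the share over all regions is not given here. Without the block, the 10 leading regions had TOP2B changes with etoposide of -0.21 in mon_5_1 to 0.26 in mon_19_5, with standard errors of 0.434 to 0.503. Their TOP2A changes with mitoxantrone ran from -0.27 in mon_19_5 to 0.18 in mon_7_7, with standard errors of 0.569 to 0.657. Each of these changes was smaller than its standard error.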

How the data were processed

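The submitters' processing notes name Trimmomatic 0.36, BWA 0.7.17, the T2T-CHM13 genome and HTSeq (given as 2.7.13). The deposited values are the authors' raw read counts for 2523 regions and 5 tallies of unassigned reads, which were left out of region totals. No source used here gives the lowest mapping quality kept, or says if pairs counted once. The sets of regions and comparisons were chosen with earlier results of these data known.

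Log2 shares used 0.5 added reads, and CPM is per 1000000 region reads. Tests used edgeR 4.0.16 (quasi-likelihood, TMM factors, filterByExpr with a minimum count of 10, R 4.3.3), with Benjamini-Hochberg adjustment over all regions tested, two-sided, at a threshold of 0.05. Each series was fitted alone, and comparisons across both series on 42 libraries. Alternatives were DESeq2 1.42.0, no filter, other library scalings, a replicate block and leaving out each replica, and the combination of monomeric scaling and block was chosen after seeing the data. The named regions were, by rule, the 10 with the highest mean CPM, any past the threshold, the leading one of each chromosome, those most and least like the summed class, and the 5 regions of other classes most like it. Others, mon_20_7 among them, were chosen after their values were seen.

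The labels' replica number pairs the libraries. In 21 pairs of drug and no-drug libraries, 18 correlated above 0.1 over 1232 regions after removal of group means (-0.461 to 0.920). Of these 21 pairs, 17 had their highest value with their own number. The others were TOP2A in etoposide replica 3 (-0.027), TOP2B in etoposide replicas 3 and 4 (0.198 and -0.214), and input in etoposide replica 4 (-0.461). This check thus did not bear out the pairing in part of the replicas where the regions were higher with etoposide in TOP2B and input. A drug change that differs between replicas also lowers this correlation, so the check cannot tell it from a wrong pairing. No 2 libraries of a group held identical counts in 54 pairs compared. The edgeR script was tested on simulated data, with independent libraries, no replica effect and a smaller spread than the real counts. This checked the script, and cannot say how well the test performs on these data.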

Additional observations from a re-analysis of the deposited data

Results flagged for a closer look

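Of 66 sets of 4 replicas checked in the etoposide series (the class share and the 10 leading regions, in each library kind and treatment), 30 had 1 library that stood far from the other 3, with a gap over 0.829 of the range. Chance gives about 1 in 20, or 3.3 sets, but the sets are not independent since the regions of a library move together. In all 30 it was an untreated library of replica 2, and the highest of its group.

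The class shares so marked were 3.86% (TOP2A), 3.72% (TOP2B) and 3.82% (input), where the other untreated replicas had at most 0.875%. For single regions the values in TOP2A, TOP2B and input were 5175, 4982 and 4948 CPM for mon_8_1, 2210, 2186 and 2241 CPM for mon_10_1, and 1772, 1722 and 1726 CPM for mon_11_4. They were 1638, 1565 and 1568 CPM for mon_11_3, 1640, 1538 and 1718 CPM for mon_7_7, 996, 1005 and 1045 CPM for mon_11_1, and 888, 866 and 910 CPM for mon_3_1. Region mon_19_5 was marked in TOP2A and input (1570 and 1535 CPM), mon_5_1 likewise (935 and 898 CPM), and mon_8_11 in TOP2A and TOP2B (1176 and 1142 CPM). The same replica had its own sequencing order, and the part of the order in these values was not tested.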

How the results depend on the processing

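The count of monomeric regions called was 0 in 19 comparisons and stayed 0 in 212 alternatives, the replicate block among them. With the replica as a block, for example, 0 were called in etoposide TOP2B, where 15 had an unadjusted p under 0.05. Over all regions tested, 0% were called in the 19 comparisons too, and at most 0.437% in the fits with a block. DESeq2 called 0 regions as well. For the other alternatives the share over all regions is not given here, so their counts cannot be read as particular to monomeric regions. The medians over the regions took the other sign in 39 of 212 alternatives, and the summed class change in 10 of 136. For mon_8_1, 12 of 57 alternatives gave the other sign. Its etoposide change in TOP2A was -0.04 with no filter on low counts, -0.13 scaled to monomeric reads and -0.13 with that scaling and the replicate block, and ran from -0.77 to 1.17 when a replica was left out. Its mitoxantrone change in TOP2A was 0.09 scaled to monomeric reads and 0.09 with the block as well, and ran from -1.40 to -0.15 without a replica. In TOP2B these were 0.08, 0.07 and -1.75 to 0.11, and in input 0.04, 0.03 and -1.41 to 0.20. The cause was not tested, except that scaling to the class removes the change the class shares by its construction. Depth limits the rest: 63 of the 191 were tested in no fit.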
